A study of Mus musculus with 17 samples.

Results

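The 41 genes described here copy DNA and supply its building blocks, and they were chosen by name from 43430 mouse gene IDs, each symbol being matched to its Ensembl ID. They were measured by RNA sequencing in flow-sorted alveolar type 2 (AT2) cells, which secrete lung surfactant, sorted from 2-month-old mice of the C57BL/6J strain. In the ISRIB experiment, naive mice received vehicle (4 libraries) or ISRIB (4 libraries), and libraries were made from poly(A) RNA 24 h later with the NEBNext RNA Ultra I kit, each from 3 ng of RNA. ISRIB is a compound that restores protein synthesis when the integrated stress response has lowered it. In the bleomycin experiment, naive mice (4 libraries) were set against bleomycin-treated mice at day 14 (5 libraries); bleomycin breaks DNA and injures the lung. These 9 libraries were made from total RNA, 0.35 ng each, with a SMARTer Stranded kit (v2 Pico), and all 9 carry the treatment label vehicle and the word saline in their titles. The titles of the vehicle libraries say saline too. No dose of either drug is given in the sources used here. All 17 libraries are of 1 strain, age and sorted cell type. Nothing in the labels says that each library came from its own mouse, so p-values measure the spread between these samples.

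Before a cell copies its DNA, the origin recognition complex and the loading factors Cdc6 and Cdt1 place the ring of 6 MCM proteins on the DNA. In S phase, Cdc45 and the GINS complex turn that ring into the working helicase, primase and polymerase alpha lay primers, and polymerases delta and epsilon extend them on a sliding clamp of PCNA. E2F transcription factors drive many of these genes when a cell enters S phase, and E2f7 and E2f8, which repress the same targets, are themselves among the genes they drive. In the adult lung, AT2 cells divide rarely at rest and are known to divide after injury to renew themselves and to give rise to alveolar type 1 cells.

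Stretches of RefSeq promoters from the GRCm38.p6 build are shown for 4 genes on which the results below turn: Mcm5 and Mcm6 because they are 2 subunits of 1 ring described in both comparisons, and Rrm2 and E2f8 because they rose most in their role groups. Each is the 200 bases before the RefSeq start site, read 5′ to 3′ on the gene's own strand, and capitals mark E2F words. The words searched, on both strands, were TTCCCGC (the first form), TTGGCGC (the second), TTCGCGC (the third) and TTGCCGC (the fourth), and neighbouring words may overlap.
Mcm5 (chr8:75109309-75109508, plus strand): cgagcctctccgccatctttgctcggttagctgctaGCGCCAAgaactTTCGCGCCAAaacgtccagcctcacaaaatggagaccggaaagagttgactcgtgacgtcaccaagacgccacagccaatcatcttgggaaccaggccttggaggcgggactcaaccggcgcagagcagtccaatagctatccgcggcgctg
Mcm6 (chr1:128359706-128359905, minus strand): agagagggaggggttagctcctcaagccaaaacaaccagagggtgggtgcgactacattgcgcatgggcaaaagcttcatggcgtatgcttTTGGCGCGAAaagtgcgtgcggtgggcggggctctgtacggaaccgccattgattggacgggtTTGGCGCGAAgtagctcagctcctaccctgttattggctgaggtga
Rrm2 (chr12:24708054-24708253, plus strand): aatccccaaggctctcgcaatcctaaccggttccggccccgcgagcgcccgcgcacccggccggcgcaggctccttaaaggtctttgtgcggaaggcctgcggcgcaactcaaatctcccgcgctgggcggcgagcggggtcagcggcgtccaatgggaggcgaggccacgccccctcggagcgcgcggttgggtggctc
E2f8 (chr7:48881597-48881796, minus strand): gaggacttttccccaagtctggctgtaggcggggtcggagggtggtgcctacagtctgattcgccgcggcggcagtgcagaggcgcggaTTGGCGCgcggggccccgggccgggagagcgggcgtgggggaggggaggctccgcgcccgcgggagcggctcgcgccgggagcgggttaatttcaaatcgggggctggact
Overlapping words form the runs TTCGCGCCAA in Mcm5 and TTGGCGCGAA in Mcm6, the latter present at 2 places. The printed Rrm2 stretch holds 0 such words, and its 1 match lies at position -235, before the first base shown. In windows from 250 bases before to 50 after the start, an E2F word was found in 28 of 44 member windows (63.6%), which belong to 25 of 36 genes with a window, against 9.57% of all 32851 windows. CCAAT was found in 63.6% of member windows against 37.4% of all, and TTTGAA, the cell cycle homology region word, in 15.9% against 17.9%. Mcm4, Gins1, Gins2, Pole and Rfc2 had no window. A match is a description of letters and not a binding site. Pcna and Tyms held no E2F word in their windows, and Mcm3 held 3.

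Sequencing gave 10493574 to 15727139 counts per poly(A) library and 3295257 to 6333166 per total-RNA library, so weakly expressed members are measured less precisely in the latter. The AT2 label held in all 17 libraries, with summed AT2 markers at 173719 CPM or more in poly(A) and 48951 CPM or more in total-RNA libraries (CPM, counts per 1000000 counts). Some libraries stand apart. Summed AT2 markers were lowest in bleomycin 1 (48951 CPM) and bleomycin 2 (57553 CPM) against 79162 to 86488 in naive libraries, and the 8 fibroblast markers were highest in these same libraries (60 and 125 CPM against 5.07 to 14.1). In ISRIB 2 and ISRIB 4 the macrophage and monocyte list, nearly all of it Lyz1, summed to 3590 and 3974 CPM against 2004 to 2357 in the vehicle libraries. Other markers of that list were low, with mean Ptprc at 0.119 CPM in vehicle and 0.042 CPM in ISRIB libraries, and Cd68 at 4.54 and 4.95 CPM. The sum is therefore a level of Lyz1 and does not measure macrophages. In bulk RNA, fewer cells of a type and less RNA per cell cannot be told apart.

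After bleomycin, many DNA replication genes were higher. Of the 36 members tested, 20 rose and 0 fell at an adjusted p under 0.05 in edgeR's quasi-likelihood test, beside 11.2% of all 11223 genes rising and 9.31% falling. The largest rises were in E2f8, Rrm2 and Uhrf1, at 12.5-fold, 8.52-fold and 8.16-fold. Of the 6 MCM helicase subunits 5 rose, whereas Mcm6 and the clamp gene Pcna did not pass the test. All members summed to 313 to 392 CPM in naive and 536 to 747 CPM in bleomycin libraries, so the summed levels did not overlap.

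The median log2 fold change of the tested members was 0.87, beside 0.00 over all genes tested, and 32 of 36 lay above 0, beside 50.2% of all genes. At an unadjusted p under 0.05 the counts were 22 higher, beside 17.6% of all genes, and 0 lower, beside 15.8%. DESeq2 and limma-voom also called 0 members lower. For 17 members every bleomycin library was above every naive library, beside 10.4% of all genes. Membership of the tested set needs care: 12 members (Mcm3, Cdc6, Cdt1, Cdc45, Pole, Rfc5, Rrm2, Chaf1a, Chaf1b, Uhrf1, E2f7 and E2f8) were below the CPM set by the filter on low counts in at least 1 naive library. Their passing drew on bleomycin libraries, which favours genes that are higher there, and Cdc45, Rrm2, E2f7 and E2f8 were over that CPM in 0 naive libraries. Among the 24 members over that filter in every naive library, 11 rose, beside 9.62% of genes of the same kind. With no filter, 18 of all 41 rose, beside 5.41% of genes, with the median of all genes shifted to -0.27.

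**Figure D1:**
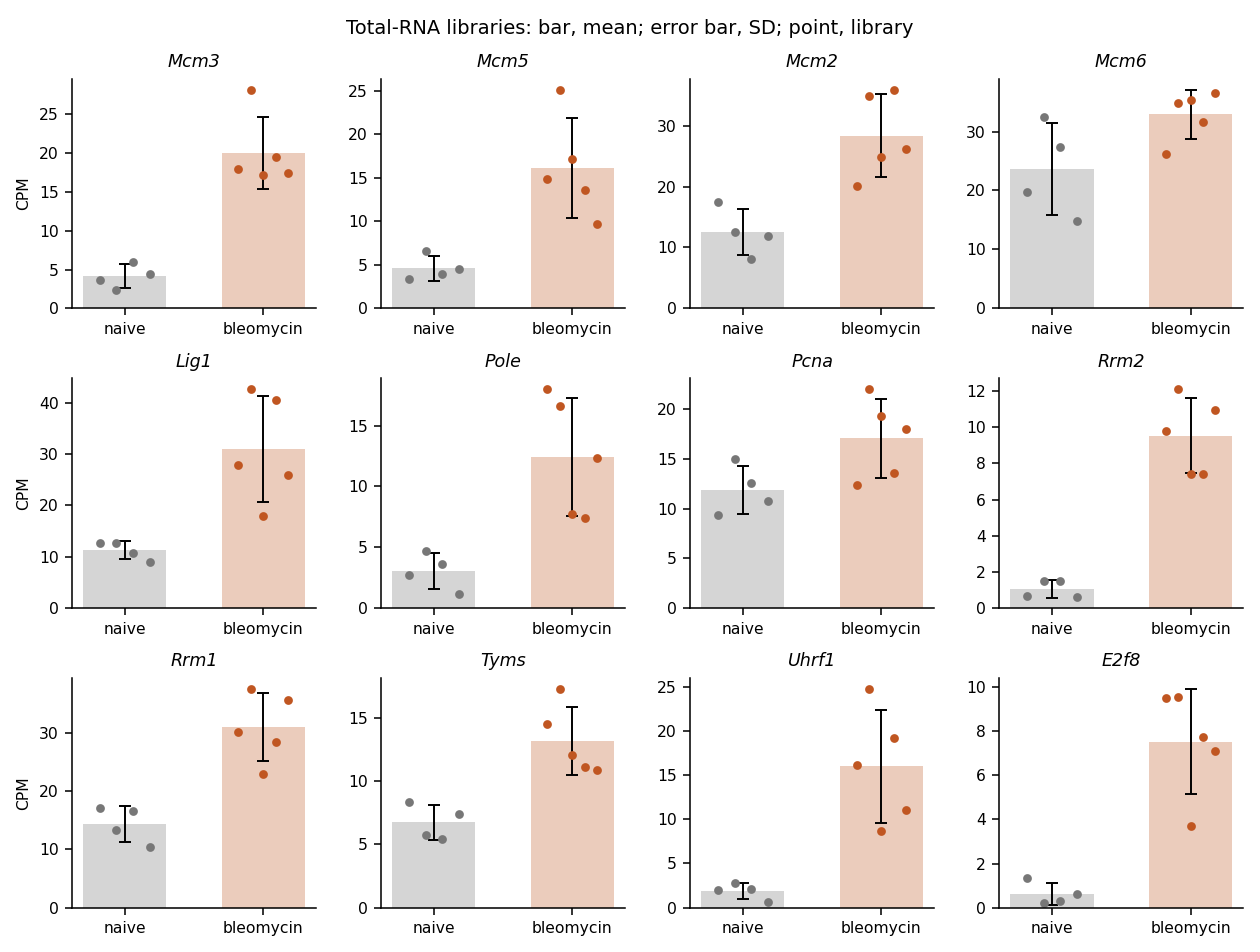
CPM of 12 replication genes in the total-RNA libraries, grey for naive (n = 4) and orange for bleomycin (n = 5); bars are means, error bars SD and points libraries. The bleomycin points lie above all naive points for every gene shown except Mcm6 and Pcna, whose groups overlap.

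The MCM ring, the helicase core that is loaded before S phase and opens DNA during it, showed its largest change in Mcm3. Mcm3 (chr1:20802968-20820312, minus strand) had 3.69, 2.35, 6.01 and 4.47 CPM in naive 1 to 4 and 18, 28.2, 17.2, 19.5 and 17.4 CPM in bleomycin 1 to 5. The groups were far apart, with bleomycin 2 highest, and the log2 fold change was 2.30 ± 0.29 (SE, edgeR adjusted p = 2.14e-05). Mcm5, whose promoter is printed above (gene at chr8:75109569-75128439, plus strand), had 3.35, 6.62, 3.90 and 4.47 CPM in naive and 14.8, 25.1, 17.2, 13.6 and 9.66 CPM in bleomycin libraries. Every bleomycin library exceeded every naive one, and its log2 fold change was 1.78 ± 0.32 (SE, edgeR adjusted p = 0.000591). Mcm2 had 17.4, 12.6, 8.11 and 11.9 CPM in naive and 20.1, 34.8, 24.8, 35.9 and 26.1 CPM in bleomycin libraries, a log2 fold change of 1.18. Mcm4 had 10.7, 15, 14.1 and 17.0 CPM in naive and 25.9, 29.6, 25.2, 24.1 and 25.3 CPM in bleomycin libraries, a log2 fold change of 0.87. Both of these groups were also separate, and Mcm4 was the most even subunit among the bleomycin libraries. Mcm7 rose by 0.56 (edgeR adjusted p = 0.0479), and it kept the call under 7 of 16 alternatives.

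Mcm6 (chr1:128331590-128359664, minus strand) did not pass the test. It had 19.8, 32.5, 27.3 and 14.9 CPM in naive and 26.2, 34.8, 35.3, 31.6 and 36.6 CPM in bleomycin libraries. The groups overlapped, since naive 2 and naive 3 exceeded bleomycin 1, and the log2 fold change was 0.47 ± 0.20 (SE, edgeR adjusted p = 0.108). Without naive 2 it was 0.67 (edgeR adjusted p = 0.0402). Per kilobase of exon, the 6 subunits spanned 1.10 (Mcm3) to 5.06 (Mcm6) CPM in naive libraries and 4.03 (Mcm5) to 7.26 (Mcm4) CPM in bleomycin libraries. The lowest pair of levels in naive libraries, Mcm3 and Mcm5, were those with the largest rises.

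Among the 9 origin licensing and firing genes, 2 were over the filter's CPM in every naive library and 0 of these rose. In all, 5 were tested and 1 rose, beside 11.2% of all genes. This was Cdc45, the helicase cofactor recruited when an origin fires, with 1.35 ± 0.72 CPM in naive and 4.29 ± 1.02 CPM in bleomycin libraries (SD, n = 4 and 5) and a log2 fold change of 1.61 ± 0.52 (SE, edgeR adjusted p = 0.0315). It rested on 20 naive and 103 bleomycin counts, and it kept the call under 8 of the 15 alternatives that tested it. The loading factors Cdt1 (0.99, edgeR adjusted p = 0.163) and Cdc6 (0.82, edgeR adjusted p = 0.392) had positive log2 fold changes that did not pass. In bleomycin 3, Cdt1 (1.55 CPM) was below all naive libraries and Cdc6 (0.619 CPM) was level with the lowest of them. Without bleomycin 3, Cdt1 had a log2 fold change of 1.25 (edgeR adjusted p = 0.0422). Orc6, a subunit of the origin recognition complex, was at 0.14, and Mcm10, which helps to start the helicase, had the lowest value of the group at -0.04. Orc1, Gins1, Gins2 and Gins3 were too low to be tested. Their summed counts over the naive and bleomycin libraries were 10 and 45 for Orc1, 9 and 34 for Gins1, 7 and 59 for Gins2, and 11 and 52 for Gins3.

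Of the 4 polymerase and primase genes, 3 were over the filter's CPM in every naive library and 0 of these rose. Pole, the catalytic subunit of polymerase epsilon on the leading strand, rose but passed the filter with the help of bleomycin libraries. It had 2.68, 4.70, 3.60 and 1.19 CPM in naive and 18, 16.6, 7.74, 7.43 and 12.4 CPM in bleomycin libraries. The lowest bleomycin libraries, 3 and 4, still exceeded all naive ones, and the log2 fold change was 1.98 ± 0.39 (SE, edgeR adjusted p = 0.00151). Pold1, the catalytic subunit of polymerase delta, had 12.4, 12.2, 12 and 10.1 CPM in naive and 21.7, 20.2, 14.9, 8.97 and 11.4 CPM in bleomycin libraries. Its groups overlapped, with bleomycin 1 and 2 high and bleomycin 4 below all naive libraries (0.40 ± 0.26, SE, edgeR adjusted p = 0.300). Without bleomycin 1 and 2 its log2 fold change was 0.03. The primase subunit Prim1 was at 0.87 (edgeR adjusted p = 0.155), and Pola1, the catalytic subunit of polymerase alpha, was at -0.16 and did not pass either.

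Among the 9 clamp, clamp loader, single-strand binding and lagging-strand genes, 5 rose, beside 11.2% of all genes. Of the 8 over the filter's CPM in every naive library 4 rose, beside 9.62% of genes of the same kind. Lig1, the ligase that joins Okazaki fragments, had 12.7, 12.6, 10.8 and 8.94 CPM in naive and 27.8, 42.6, 18, 40.5 and 26.0 CPM in bleomycin libraries. All bleomycin libraries were higher, bleomycin 3 least so, and the log2 fold change was 1.44 ± 0.25 (SE, edgeR adjusted p = 0.000470). Pcna, the clamp that holds polymerases on DNA, had 9.39, 15, 12.6 and 10.7 CPM in naive and 12.4, 22.0, 19.4, 13.6 and 18.1 CPM in bleomycin libraries. The groups overlapped at naive 2, naive 3, bleomycin 1 and bleomycin 4, and the log2 fold change of 0.52 ± 0.23 (SE) did not pass the test (edgeR adjusted p = 0.122).

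Of the clamp loader subunits, which open the clamp and close it around DNA, Rfc4 (1.27) and Rfc5 (1.12, a call kept under 8 of 16 alternatives) rose. Rfc2 (0.21) and Rfc3 (-0.29, the lowest of the group) did not pass, and the difference between subunits was not tested. Rpa1, the large subunit of the single-strand binding protein, rose by 0.55, and Rpa2 was at 0.37 with a wide SE of 0.51. In Rpa2, bleomycin 4 held 1 count, 0.309 CPM, against 5.55 to 7.43 CPM in the other bleomycin libraries. Fen1, the flap nuclease that trims Okazaki fragments, rose by 1.23. Of its 2422 bases of exon, 2039 overlap exons on the other strand (Tmem258 and Gm10143), so its level is uncertain. Rfc5, Rpa1, Fen1 and Rfc4 each lost the call under at least 1 alternative, whereas Lig1 lost it under none of 16.

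In the deoxynucleotide group, 3 of 5 members rose, beside 11.2% of all genes. Of the 4 over the filter's CPM in every naive library 2 rose, beside 9.62% of genes of the same kind. Rrm2 (chr12:24708241-24714146, plus strand) encodes the small, cell-cycle-regulated subunit of ribonucleotide reductase, the enzyme that turns ribonucleotides into deoxynucleotides. It had 0.671, 1.5, 1.5 and 0.596 CPM in naive and 9.79, 12.1, 7.43, 7.43 and 10.9 CPM in bleomycin libraries. No library of one group came near the other, and the log2 fold change was 3.09 ± 0.42 (SE, edgeR adjusted p = 4.39e-05) on 16 naive and 245 bleomycin counts. Its partner Rrm1 had 17.1, 13.2, 16.5 and 10.4 CPM in naive and 30.2, 37.5, 22.9, 28.5 and 35.6 CPM in bleomycin libraries. The groups were again separate, with a smaller log2 fold change of 1.12 ± 0.20 (SE, edgeR adjusted p = 0.000746). Per kilobase of exon, Rrm2 stood at 0.385 CPM and Rrm1 at 1.30 CPM in naive libraries, and at 3.44 and 2.81 CPM in bleomycin libraries. The length used joins all annotated exons of a gene, 2771 bases for Rrm2 and 11012 for Rrm1. The order of these genes per kilobase therefore depends on the annotation.

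Tyms, which makes thymidylate, had 8.39, 5.77, 5.40 and 7.45 CPM in naive and 14.5, 17.3, 12.1, 11.1 and 10.9 CPM in bleomycin libraries. Every bleomycin library was higher (log2 fold change 0.98 ± 0.26, SE, edgeR adjusted p = 0.0126). Without bleomycin 1 and 2 its adjusted p was 0.0626. Tk1, the salvage thymidine kinase (0.52, edgeR adjusted p = 0.249), and Dut, which removes dUTP (0.52, edgeR adjusted p = 0.234), had positive values that did not pass.

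Of the 4 chromatin genes, 3 rose, beside 11.2% of all genes. Only 1 of the 4, Dnmt1, was over the filter's CPM in every naive library. Uhrf1 and Chaf1a passed the filter with the help of bleomycin libraries, so the count is no support on its own. Uhrf1 (chr17:56303321-56323486, plus strand) recognises hemimethylated DNA behind the fork and brings in the methyltransferase Dnmt1. Its levels were 2.01, 2.78, 2.1 and 0.596 CPM in naive and 16.1, 24.7, 8.67, 19.2 and 11.1 CPM in bleomycin libraries. The groups were separate, with bleomycin 3 the lowest of its group, and the log2 fold change was 3.03 ± 0.41 (SE, edgeR adjusted p = 4.40e-05). Dnmt1 had 61.0, 60.7, 70.6 and 53.6 CPM in naive and 108, 112, 70.6, 144 and 79.7 CPM in bleomycin libraries. Bleomycin 3 was level with naive 3, and the log2 fold change was 0.73 ± 0.17 (SE, edgeR adjusted p = 0.00606). Chaf1a, the large subunit of the CAF-1 histone chaperone, had 9.06, 2.99, 3.90 and 2.09 CPM in naive and 12.7, 21.3, 6.66, 13 and 15.5 CPM in bleomycin libraries. Naive 1 exceeded bleomycin 3, and the log2 fold change was 1.65 ± 0.40 (SE, edgeR adjusted p = 0.00681). Of its 8854 bases of exon, 4648 overlap Ubxn6 on the other strand, so its level is uncertain. The partner subunit Chaf1b was at 0.54 (edgeR adjusted p = 0.428).

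The repressor E2Fs, E2f7 and E2f8, rose. Both were over the filter's CPM in 0 naive libraries and passed with the help of bleomycin libraries. Their calls are therefore no support on their own. E2f8 (chr7:48866429-48881596, minus strand) had 1.34, 0.214, 0.300 and 0.596 CPM in naive and 9.52, 9.56, 3.72, 7.73 and 7.13 CPM in bleomycin libraries. The naive values rest on 8 counts in all and the bleomycin values on 183. The log2 fold change was 3.65 ± 0.57 (SE, edgeR adjusted p = 0.000168), the largest of all members tested. E2f7 rose by 2.04 ± 0.52 (SE, edgeR adjusted p = 0.00878). E2f1, the best-known activator of S-phase genes, was too low to be tested, with 0, 0.855, 0.601 and 0.894 CPM in naive and 1.59, 2.17, 2.79, 5.26 and 2.38 CPM in bleomycin libraries. Every bleomycin library was above every naive one, on 9 naive and 68 bleomycin counts, and with no filter its log2 fold change was 2.16 ± 0.83 (SE, edgeR adjusted p = 0.0723). E2f2, another activator and the most abundant of the 4 E2F members per kilobase, did not follow them. It had 40.6 ± 7.71 CPM in naive and 37.4 ± 7.62 CPM in bleomycin libraries (SD, n = 4 and 5) and a log2 fold change of -0.12 (edgeR adjusted p = 0.669).

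**Figure D2:**
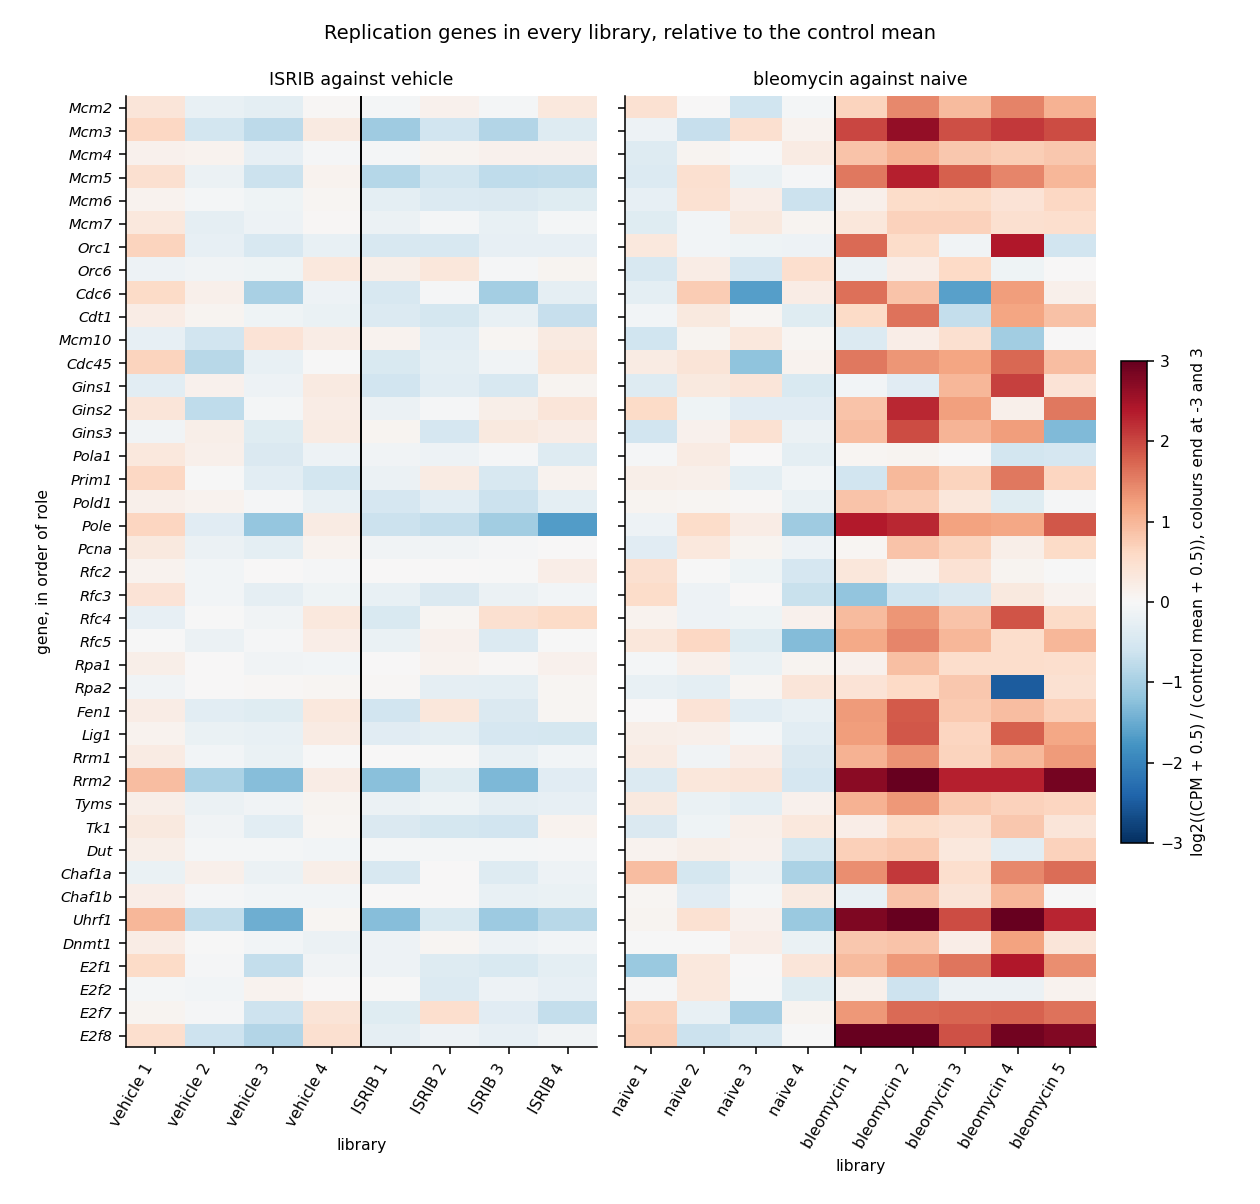
Each of the 41 genes (vertical, in order of role) in each library (horizontal), as log2 of CPM + 0.5 over the control mean + 0.5, red above and blue below the vehicle or naive mean, with colours ending at -3 and 3. Rrm2, Uhrf1, E2f8 and Mcm3 are red in all 5 bleomycin libraries, whereas E2f2, Pola1 and Mcm10 stay near white or pale; on the left, vehicle 1 is the reddest column.

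Other genes of the same processes were taken from lists that share no gene with the members, and their counts stand beside the 11.2% of all genes that rose. Among 34 further replication genes tested, 6 rose and 0 fell in edgeR (11 and 1 at an unadjusted p under 0.05): Timeless, which steadies the fork (1.97 to 9.70 CPM, log2 fold change 2.22), the origin-firing factors Ticrr (3.39, on 5 naive counts) and Topbp1 (0.70), the histone chaperone Asf1b (2.51, on 7 naive counts), the checkpoint mediator Clspn and the histone RNA-binding Slbp. Of these 34 replication genes, 26 were over the filter's CPM in every naive library. Only 2 of the 26 rose, beside 9.62% of genes of the same kind. The other rises were in genes that passed the filter with the help of bleomycin libraries, so the count over all 34 is no support on its own. Of 28 further nucleotide genes tested, 4 rose and 0 fell in edgeR (9 and 1 at an unadjusted p under 0.05), a share near that of all genes. Ctps, which makes CTP, rose from 45.9 ± 3.73 to 145 ± 27.4 CPM (SD, n = 4 and 5), a log2 fold change of 1.66 ± 0.15 (SE, edgeR adjusted p = 7.71e-07). The others were Samhd1 (0.95), which breaks down deoxynucleotides, Paics (0.38) of purine synthesis and Umps (0.78) of pyrimidine synthesis.

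Of 17 other E2F, pocket protein and S-phase cyclin genes tested, 3 rose and 1 fell. Among the 13 over the filter's CPM in every naive library, 0 rose and 1 fell. All 3 rises were thus in genes that passed the filter with the help of bleomycin libraries, and their count is no support on its own. The cyclin Ccna2 rose by 3.13 and E2f3 by 1.31. Ccne1, cyclin E1, also rose (4.20 ± 0.90, SE, edgeR adjusted p = 0.00184), with 2 counts over the naive and 78 over the bleomycin libraries. The ratio per count sequenced was 22.1, with a 95% counting interval of 5.91 to 186. That interval pools the counts of each group and leaves out the spread between libraries. Rbl2, the pocket protein p130 that holds E2F targets off in resting cells, fell by 0.66. Among 15 checkpoint, arrest and D cyclin genes tested, 6 rose and 1 fell. Of the 9 over the filter's CPM in every naive library, 3 rose and 1 fell, beside 9.62% of genes of the same kind rising. These 3 were the arrest gene Cdkn1a and the D cyclins Ccnd1 and Ccnd3, which promote the cell cycle. Cdkn1a, the p21 inhibitor of cyclin-dependent kinases, rose by 2.29 (edgeR adjusted p = 9.95e-07) from 16.7 ± 2.64 to 82.0 ± 25.0 CPM, cyclin D1 (Ccnd1) by 1.30, Chek2 by 2.16 and Ccnd3 by 0.42, and Atm fell by 0.62.

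Mitosis genes, which act after replication is done, rose as well. Of 21 tested, 19 rose and 0 fell in edgeR (20 and 0 at an unadjusted p under 0.05), beside 11.2% of all genes rising. Only 8 of the 21 were over the filter's CPM in every naive library, and 6 of these 8 rose, beside 9.62% of genes of the same kind; the rest passed the filter with the help of bleomycin libraries, so the count over all 21 is no support on its own. Mki67, the proliferation marker, went from 15 ± 7.73 to 238 ± 55.8 CPM (SD, n = 4 and 5; log2 fold change 3.94, edgeR adjusted p = 7.15e-08), and Kif23, Prc1 and Cenpf rose by 3.30, 1.97 and 3.10. Their summed level was 82.0 to 120 CPM in naive and 495 to 869 CPM in bleomycin libraries. Bleomycin 2 had the highest and bleomycin 3 the lowest sum of both mitosis and replication genes within the bleomycin group.

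**Figure D3:**
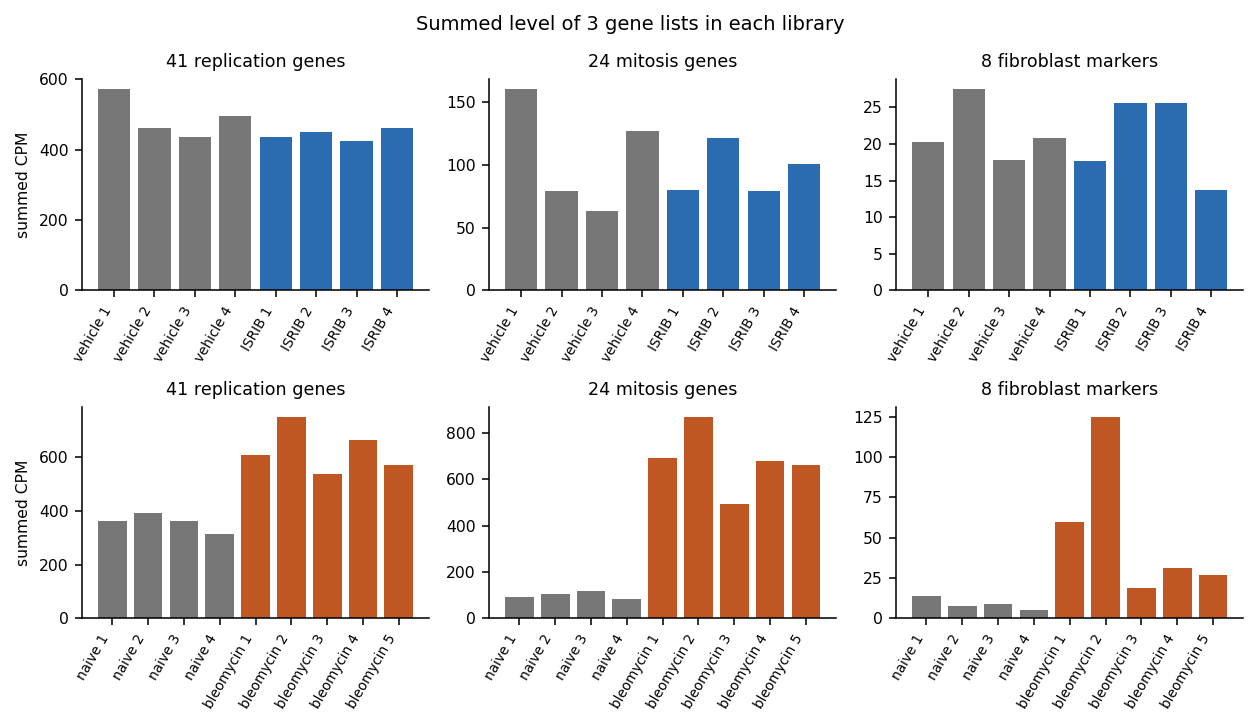
Summed CPM of the 41 replication genes, 24 mitosis genes and 8 fibroblast markers in each library (poly(A) above, total RNA below; grey for vehicle or naive, blue for ISRIB, orange for bleomycin). All bleomycin bars exceed all naive bars in the 3 lists, and the fibroblast markers are highest in bleomycin 2 and bleomycin 1.

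Markers of other cells moved with the same comparison. Of the 8 fibroblast markers, 4 were tested and 3 rose, with summed levels of 5.07 to 14.1 CPM in naive and 18.6 to 125 CPM in bleomycin libraries, and Lum at 0 in all. Of the 4 tested, 0 were over the filter's CPM in every naive library, so the count of rises is no support on its own. Among untested markers, mean naive and bleomycin levels were 0.928 and 1.00 CPM for Pdgfra, 0.903 and 1.15 for Pdgfrb, and 0.0534 and 1.81 for Dcn. Col1a1 was at 1.35 CPM in naive and 20.1 CPM in bleomycin libraries. Endothelial markers (2 of 4 tested rose) summed to 16.7 to 26.2 and 17.7 to 73.5 CPM. Of the 3 endothelial markers over the filter's CPM in every naive library, 1 rose. Of 14 macrophage and monocyte markers, 4 were tested, 0 rose and 1 (Lyz1) fell in edgeR (0 and 1 at an unadjusted p under 0.05). Their sums were 688 to 856 and 237 to 716 CPM, Marco and C1qa were at 0, and Ptprc, the general leukocyte marker, was at 0.486 and 0.994 CPM. Neutrophil markers summed to at most 1.80 CPM and lymphocyte markers to at most 9.59 CPM. Of 7 airway epithelium markers, 5 were tested and 1 rose (Foxj1, of ciliated cells, 3.37 to 16.3 CPM, log2 fold change 2.27, edgeR adjusted p = 0.00440), with sums of 411 to 857 and 478 to 839 CPM. Of the 4 airway markers over the filter's CPM in every naive library, 0 rose. Of 7 alveolar type 1 markers, 5 rose. Among the 6 of them over that CPM in every naive library 4 rose, beside 9.62% of genes of the same kind. Of 9 AT2 markers, 2 rose and 1 fell, and Sftpc was at -0.44 (edgeR adjusted p = 0.0870). Without bleomycin 1 and 2, the libraries with most fibroblast and least AT2 marker RNA, 15 members rose, beside 10.9% of genes, and the median was 0.73. Library quality differed too. Naive libraries held 17108 to 19763 detected genes and a ribosomal and mitochondrial share of 21.6% to 30.2%, against 13940 to 17112 genes and 16.6% to 23.8% in bleomycin libraries. The part of other cell types and of library quality in the rise was not tested.

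After ISRIB, few of the same genes passed the test. Of 37 members tested, 2 fell and 0 rose, beside 1.10% of all 12054 genes falling and 1.10% rising. The 2 were Mcm6 (0.772-fold) and Pold1 (0.730-fold). Orc1, Gins2, E2f7 and E2f8 were too low to be tested. No member rose at an unadjusted p under 0.05 either (0, beside 7.94% of genes), nor with DESeq2 or limma-voom, and 9 were lower, beside 8.11%. The median log2 fold change was -0.15, beside -0.00 over all genes, and 29 of 37 were below 0, beside 50.0%.

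Mcm6 had 38.1, 34.1, 32.3 and 37.2 CPM in vehicle 1 to 4 and 28.8, 26.7, 26.0 and 27.5 CPM in ISRIB 1 to 4. Every ISRIB library was below every vehicle library, and the log2 fold change was -0.37 ± 0.08 (SE, edgeR adjusted p = 0.0155). Pold1 (chr7:44532746-44548849, minus strand) had 20.8, 20.1, 18.2 and 15.9 CPM in vehicle and 13.1, 14.9, 11.7 and 15.1 CPM in ISRIB libraries. Its groups were also separate, by a narrow gap at vehicle 4, and the log2 fold change was -0.45 ± 0.11 (SE, edgeR adjusted p = 0.0373). Separate and lower groups were found for 4 members (Mcm6, Pold1, Cdt1 and Lig1), beside 4.39% of all genes. Without vehicle 1, and so with 1 library fewer, both calls were lost, at a log2 fold change of -0.34 (edgeR adjusted p = 0.0677) for Mcm6 and -0.40 (edgeR adjusted p = 0.131) for Pold1. Without ISRIB 2 and ISRIB 4, the libraries with high Lyz1, 1 member (Pold1) was lower, beside 0.512% of genes, with Mcm6 at -0.36 (edgeR adjusted p = 0.0821). These 2 libraries also had the lowest sums of airway epithelium markers (2901 and 2104 CPM against 3424 to 3823 in vehicle libraries) and of AT2 markers (173719 and 175389 CPM against 181708 to 185814). The airway sum is nearly all Scgb1a1 (mean 3458 CPM in vehicle) and the AT2 sum mostly Sftpc (mean 108706 CPM in vehicle). Neither gene was called (edgeR adjusted p = 0.385 and 0.762), and the sums do not measure cells. The airway marker Tppp3 (-0.43, edgeR adjusted p = 0.00384) and the AT2 marker Etv5 (-0.28, edgeR adjusted p = 0.00817) were lower after ISRIB. Each was the only gene called among the 5 airway and 9 AT2 markers tested, beside 1.10% of all genes falling. Of these, 2 airway and 4 AT2 markers had log2 fold changes above 0. The part of these markers and libraries in the values of the members was not tested.

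**Figure D4:**
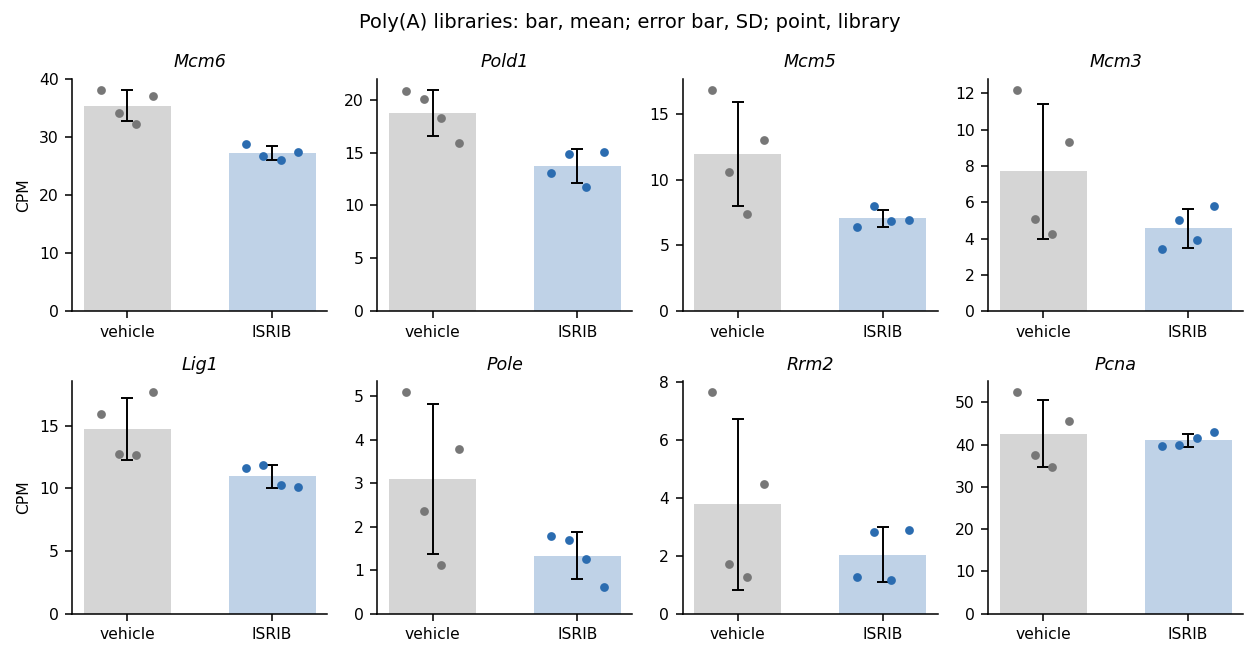
CPM of 8 replication genes in the poly(A) libraries, grey for vehicle (n = 4) and blue for ISRIB (n = 4); bars are means, error bars SD and points libraries. Mcm6, Pold1 and Lig1 have separate groups, and in Mcm3, Mcm5, Pole and Rrm2 the vehicle libraries are spread widely while the ISRIB libraries lie near the lower ones.

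In the MCM ring, Mcm5 came closest to the threshold without passing it. It had 16.8, 10.6, 7.41 and 13 CPM in vehicle and 6.38, 8.01, 6.89 and 6.93 CPM in ISRIB libraries. Vehicle 3 lay within the ISRIB range, and the log2 fold change was -0.75 ± 0.19 (SE, edgeR adjusted p = 0.0560). DESeq2 called it (adjusted p = 0.00861). Mcm3 had the same size of change (-0.75) with an SE of 0.28, and Mcm2 had the highest value of the ring at 0.10.

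The other members of the pathway gave small or imprecise values. Pole had 5.09, 2.35, 1.11 and 3.78 CPM in vehicle and 1.79, 1.68, 1.25 and 0.614 CPM in ISRIB libraries (log2 fold change -1.14, edgeR adjusted p = 0.166). Uhrf1 had 8.07, 2.08, 1.05 and 3.98 CPM in vehicle and 1.28, 2.64, 1.52 and 1.93 CPM in ISRIB libraries (-1.02, edgeR adjusted p = 0.284). Rrm2 had 7.63, 1.72, 1.25 and 4.46 CPM in vehicle and 1.28, 2.80, 1.16 and 2.90 CPM in ISRIB libraries (-0.87, edgeR adjusted p = 0.380). In all 3 genes vehicle 1 was highest, vehicle 4 next, and vehicle 3 lay within or below the range of the ISRIB libraries. Lig1 had 16, 12.8, 12.7 and 17.7 CPM in vehicle and 11.6, 11.9, 10.3 and 10.1 CPM in ISRIB libraries (-0.42, edgeR adjusted p = 0.0925). With no filter on low counts, 8 of the 41 were called lower (Mcm3, Mcm5, Mcm6, Pold1, Pole, Lig1, Rrm2 and Uhrf1), beside 1.48% of genes. Their log2 fold changes hardly differed from those with the filter. The SE was smaller for Uhrf1 (0.25 against 0.46 with the filter), Rrm2 (0.25 against 0.47) and Mcm3 (0.17 against 0.28), and larger for Mcm6 (0.085 against 0.075). The added calls thus came with a smaller estimated spread and not with larger changes.

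Pcna had 52.3, 37.5, 34.7 and 45.6 CPM in vehicle and 39.7, 39.8, 41.6 and 42.9 CPM in ISRIB libraries. The ISRIB values fell inside the vehicle range, and the log2 fold change was -0.05 ± 0.10 (SE). Tyms had 10.9, 8.32, 8.78 and 10.1 CPM in vehicle and 8.43, 8.65, 7.78 and 7.98 CPM in ISRIB libraries, with overlapping groups and a log2 fold change of -0.21 ± 0.12 (SE, edgeR adjusted p = 0.439). E2f1 had 2.37, 1.36, 0.656 and 1.26 CPM in vehicle and 1.21, 0.961, 0.894 and 1.05 CPM in ISRIB libraries (-0.40, edgeR adjusted p = 0.652). E2f2 was at -0.20 (edgeR adjusted p = 0.195). The lowest and highest log2 fold changes in the remaining role groups were -0.55 (Cdc6) and 0.16 (Orc6) for origin genes, -0.42 (Lig1) and 0.23 (Rfc4) for the clamp and lagging-strand genes, and -1.02 (Uhrf1) and -0.08 (Dnmt1) for chromatin genes. Of these, no gene passed the test.

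Vehicle 1 had the highest summed level. All members summed to 572, 462, 437 and 496 CPM in vehicle 1 to 4 and to 437, 450, 426 and 460 CPM in ISRIB 1 to 4. Mitosis genes followed a like order within the vehicle group, with sums of 161, 79.5, 63.4 and 127 CPM, against 80.3, 121, 79.6 and 101 CPM in ISRIB libraries. Of the 23 mitosis genes tested, 0 fell or rose in edgeR (1 lower at an unadjusted p under 0.05). Without vehicle 1, 0 members were called lower and the median log2 fold change was -0.05. The part of vehicle 1 in the calls with all libraries was measured only by these refits, and its origin was not tested.

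Among the other pathway genes, 1 passed the test after ISRIB, beside 1.10% of all genes falling and 1.10% rising. Cad, which starts pyrimidine synthesis, fell by 0.44 (edgeR adjusted p = 0.0137), from 39.4 ± 4.25 to 28.9 ± 2.40 CPM (SD, n = 4 each). It was 1 of 29 further nucleotide genes tested. Of these, 8 were lower and 1 higher at an unadjusted p under 0.05, beside 8.11% and 7.94% of all genes. For 4 of the 29 every ISRIB library was below every vehicle library, beside 4.39% of all genes. Of 33 further replication genes 0 were called, with 3 lower and 0 higher at an unadjusted p under 0.05. Of 17 further E2F, pocket protein and cyclin genes 0 were called (2 lower, 0 higher unadjusted). Of 15 checkpoint, arrest and D cyclin genes 0 were called (4 lower, 0 higher unadjusted).

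**Figure D5:**
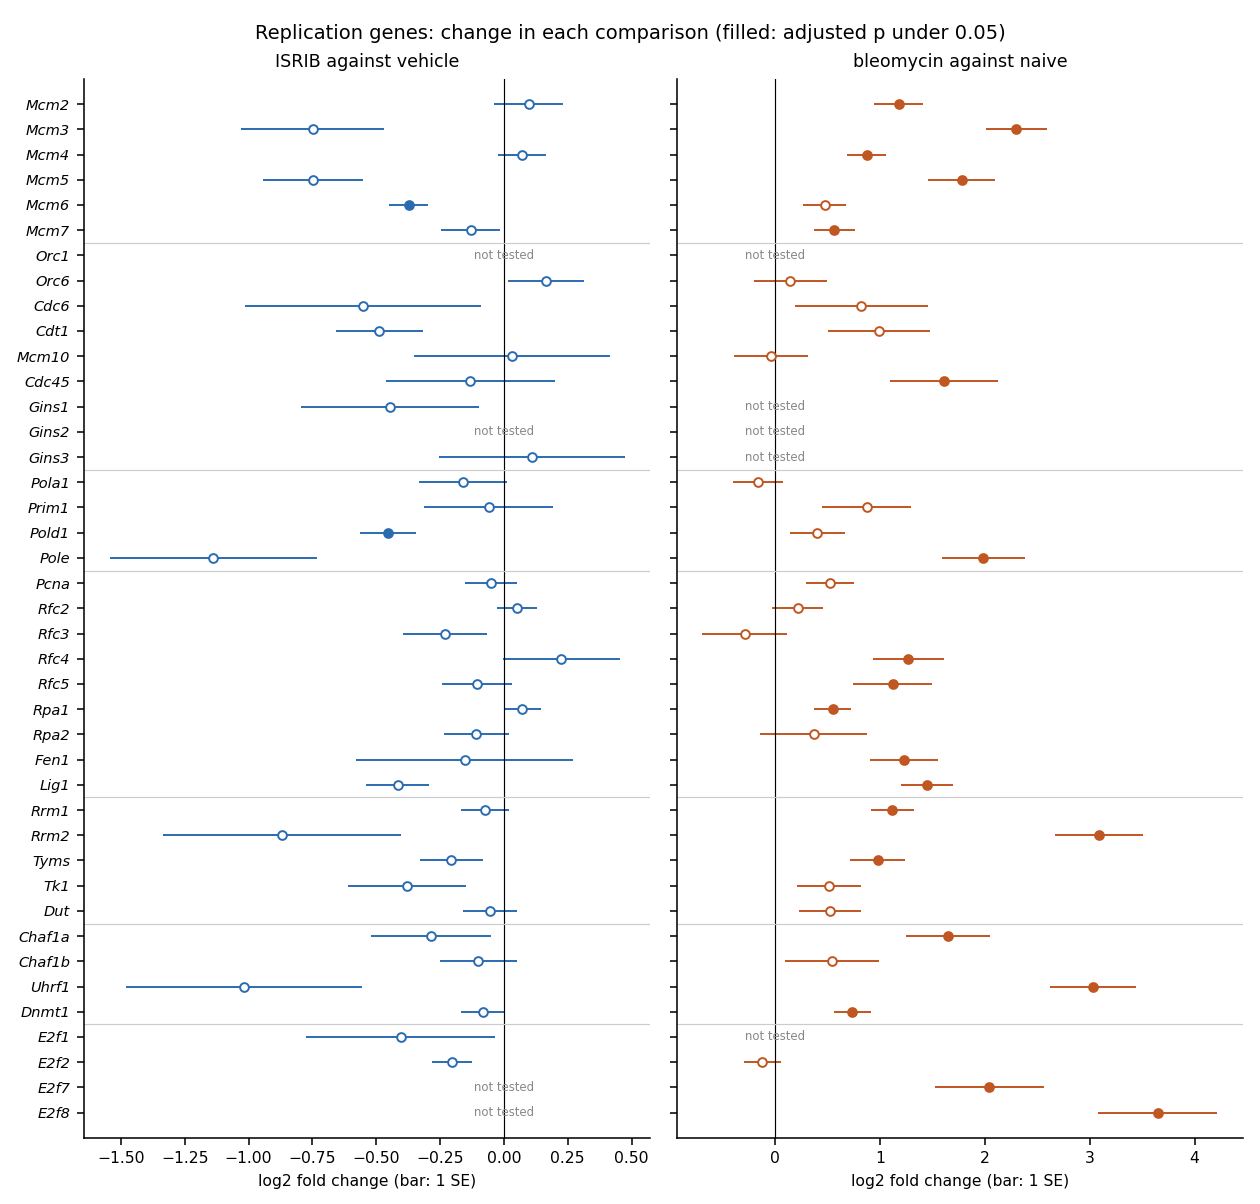
Log2 fold change of each member (points) with its SE (bars), grouped by role between grey lines, after ISRIB (left, axis from about -1.5 to 0.6) and after bleomycin (right, axis to above 4); filled points passed an adjusted p of 0.05 in edgeR. On the left 2 points are filled, both below 0, and on the right 20, all above 0; the 2 axes differ in scale.

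Levels per kilobase of exon give an order of the members within a library kit. The length joins all annotated exons of a gene, so this order depends on the annotation. In vehicle libraries the highest were Pcna (17.7 CPM per kilobase), E2f2 (11.4), Mcm6 (7.59), Rpa1 (6.99) and Mcm4 (6.07). In naive total-RNA libraries the highest were Dnmt1 (8.33 CPM per kilobase) and E2f2 (8.32), which cannot be ordered at this spread, followed by Mcm6 (5.06) and Pcna (4.97), and the lowest were E2f8 (0.113), E2f7 (0.121) and Gins2 (0.124). In bleomycin libraries Dnmt1 led at 13.9 CPM per kilobase, and E2f8 stood at 1.38. The kits were not compared by a test.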

How the data were processed

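RNA sequencing counts from 17 libraries were analysed. The authors deposited unnormalized counts of reads for 43430 Ensembl gene IDs, in 1 table for each kit. Per the submitters' processing notes, the authors used bcl2fastq 2.19.1, FastQC, Trimmomatic 0.36, STAR 2.6.0, HTSeq 0.11.2 and the mm10 build. How strand was set when counting is not stated in the sources used here, so for genes with exons on both strands the reads may not be separable. Among members called after bleomycin, Fen1 and Chaf1a share the most exon bases with the other strand. The others were E2f8 (610 bases), Rfc5 (499), Mcm7 (385), Lig1 (247), Cdc45 (209), Rfc4 (194), E2f7 (86) and Pole (78). Symbols and positions are from GENCODE M21 (GRCm38), in which 42462 IDs had a symbol, and promoters from RefSeq (GRCm38.p6).

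Each comparison was fitted within its kit on all genes passing filterByExpr (minimum count 10, minimum total 15, by group), with TMM scaling, in edgeR 4.0.16 (R 4.3.3; quasi-likelihood F test, two-sided). Benjamini-Hochberg adjustment ran over all genes tested, with calls made at an adjusted p under 0.05. CPM use TMM-scaled library sizes. Total counts ran from 3295257 to 15727139, and the common biological coefficient of variation was 7.66% (ISRIB) and 21.1% (bleomycin). The procedure was tested on simulated data.

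The members and lists were chosen with earlier results of these data known. Values per library are given for called members, at most the 12 of lowest p in each comparison, and for Mcm5, Mcm6, Pcna, Rrm2, Tyms and E2f1, with the largest rise and fall of each role. Pole, Uhrf1, Lig1 and Rrm2 after ISRIB were added after their values were seen. From the lists of other pathway genes, called genes are named, at most the 4 of lowest p in each direction, and Clspn, Slbp and E2f3 were added. Marker lists are given by counts and sums, with single markers named after their values were seen. Alternatives were DESeq2 1.42.0, limma-voom (limma 3.58.1), no filter, a filter of 30 counts, leaving out ribosomal and mitochondrial genes, a replicate block and leaving out libraries.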

Additional observations from a re-analysis of the deposited data

Results flagged for a closer look

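Of 164 groups of member values checked, in 10 the highest or lowest library stood far from the rest (the gap to the nearest library divided by the range of the group exceeded Dixon's limit). Chance gives about 1 in 20. Vehicle 1 was the high library for 3 genes: Dut (13 CPM against 10.8 to 10.9, ratio 0.92), Chaf1b (6.49 against 5.24 to 5.43, ratio 0.85) and Orc1 (0.614 against 0 to 0.097, ratio 0.842, on 7 counts). Vehicle 4 was high for Orc6 (9.02 against 6.31 to 6.60, ratio 0.893). ISRIB 4 was high for Rfc2 (28.6 against 25.0 to 25.1, ratio 0.969) and Tk1 (4.12 against 2.42 to 2.68, ratio 0.844).

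In the bleomycin experiment, bleomycin 2 was high for Mcm3 (28.2 CPM against 17.2 to 19.5, ratio 0.79) and bleomycin 4 low for Rpa2 (0.309 against 5.55 to 7.43, ratio 0.736). Naive 4 was low for Dut (4.77 against 7.71 to 8.12, ratio 0.879). Naive 1 was high for Orc1 (1.01 against 0.596 to 0.641, ratio 0.891), where naive libraries held 2 or 3 counts each.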

How the results depend on the processing

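In the bleomycin comparison, the number of members called higher was 15 to 20 under all 16 alternatives (16 to 20 leaving out 1 library) and 0 were called lower. The median log2 fold change was 0.68 with limma-voom, 0.73 without bleomycin 1 and 2, and 0.78 to 0.96 leaving out 1 library. Of the 20 members called higher, 13 passed under every alternative in which they were tested; Mcm7, Cdc45, Rfc4, Rfc5, Rpa1, Fen1 and Tyms did not. In the ISRIB comparison, the number called lower was 8 with no filter on low counts, 1 without ISRIB 2 and 4, 0 to 3 leaving out 1 library (0 without vehicle 1 and 1 without vehicle 2, ISRIB 1 or ISRIB 3) and 3 with DESeq2. Pold1 passed under 10 and Mcm6 under 13 of 15 alternatives, and 0 members were called higher under any. Leaving out libraries in pairs was chosen after seeing the data. The cause of these shifts was not tested.

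The replicate numbers shared by the groups gave no sign of pairing. After group means were removed, same-numbered libraries correlated at -0.11 to 0.08 (ISRIB) and -0.04 to 0.05 (bleomycin). All pairs across groups ran from -0.16 to 0.14 (ISRIB) and from -0.16 to 0.11 (bleomycin). A shared batch was not tested. With the replicate block, 2 members were called lower and 0 higher after ISRIB (median -0.16), and 19 higher and 0 lower after bleomycin (median 0.86).

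Of the members that were not called, 12 after ISRIB and 4 after bleomycin changed sign under at least 1 alternative (Mcm10 in both), and none of these values passed the threshold. Leaving out 1 library each, the log2 fold changes after ISRIB ran from -0.35 (without vehicle 2) to 0.25 (without vehicle 1) for Cdc45, from -0.137 to 0.0056 for Dnmt1, from -0.081 to 0.013 for Dut, from -0.48 to 0.081 for Fen1, from -0.070 to 0.32 for Gins3, from -0.18 to 0.33 for Mcm10, from -0.0070 to 0.12 for Mcm4, from -0.206 to 0.0010 for Mcm7, from -0.141 to 0.067 for Pcna, from -0.209 to 0.25 for Prim1 and from -0.14 to 0.022 for Rrm1. In 8 of these genes the sign turned without vehicle 1. After bleomycin they ran from -0.231 to 0.0031 for E2f2, from -0.223 to 0.12 for Mcm10 and from -0.012 to 0.36 for Orc6. Mcm2 was at -0.053 after ISRIB without ISRIB 2 and 4, and Rfc3 at 0.016 after bleomycin without bleomycin 1 and 2. Depth limits Orc1, the GINS genes and E2f1 in the total-RNA libraries.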
